A study of Mus musculus with 10 samples.

Results

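Sorted cardiomyocytes of 14-day-old mice were examined for their collagen messenger RNAs in animals with 1 or 2 alleles of Actn2 open to deletion by Cre. Collagen genes were taken as all entries of the deposited counts table named Col, a number, the letter a and a number, which gave 43 of the 23337 genes in the table. Of these, 11 encode chains of the fibril-forming collagens, 6 encode chains of the basement membrane collagen type IV, and 26 encode other types. Col21a1 is not an entry of the table, and the gene now called Col26a1 stands there under another name, so neither was among the 43. The low-count filter, explained below, was passed by 23 of them, and the other 20 were not tested.

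Actn2 is the gene of the Z-disc protein alpha-actinin-2, which ties the thin filaments of neighbouring sarcomeres together. Mice labelled Actn2F/F carried 2 floxed alleles, which Cre recombinase can inactivate, and are called knockouts here. Mice labelled Actn2F/+ carried 1 floxed and 1 unmodified allele and are called heterozygotes. Both groups of 5 animals received AAV9-cTNT-Cre on postnatal day 1 at 360000000 viral genomes per gram, so the controls also carried a floxed allele and expressed Cre. Cre was driven by the cardiac troponin T promoter, which is active in cardiomyocytes, and the cells were isolated by collagenase perfusion and sorting at postnatal day 14. The labels' design text calls the 5 samples of a group biological replicates, and each is referred to as 1 animal. Poly(A) RNA was sequenced in bulk, and in such samples fewer cells of a type and less RNA per cell cannot be told apart.

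Collagens are triple helices of alpha chains, and each gene encodes 1 kind of chain. Fibrillar collagens, chiefly types I, III and V in the heart, form the fibres of the interstitium and are mainly products of cardiac fibroblasts. Type IV collagen forms the mesh of the basement membrane that wraps each cardiomyocyte and capillary. Its most common trimer combines the chains of Col4a1 and Col4a2, and other trimers use the chains of Col4a3, Col4a4, Col4a5 and Col4a6. Type VI collagen forms beaded microfilaments next to basement membranes, and types XV and XVIII, the multiplexins, are associated with basement membranes. New chains are hydroxylated and folded in the endoplasmic reticulum, exported, trimmed outside the cell and crosslinked.

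Libraries held 8086656 to 25237696 counts each. Normalised read counts are in CPM, a gene's counts relative to the library total after scaling by TMM factors. Genes were compared with edgeR's quasi-likelihood test, and a gene was called when its Benjamini-Hochberg adjusted p over all 11870 tested genes was below 0.05. Fold changes are knockout minus heterozygote on the log2 scale. Actn2 itself was 3366, 3454, 3474, 2930 and 2677 CPM in heterozygotes 1 to 5 and 1286, 1250, 1145, 1182 and 1220 CPM in knockouts 1 to 5. It was lower in all 5 knockouts than in any heterozygote (log2 fold change -1.39, SE 0.09, edgeR adjusted p = 3.48e-07). The summed CPM of 10 cardiomyocyte markers was 115963 to 146746 in heterozygotes and 111042 to 137207 in knockouts, against 341 to 473 and 282 to 360 for 12 fibroblast markers and 582 to 967 and 411 to 703 for 12 endothelial markers. Of the 10 cardiomyocyte markers, 3 were called (30%, beside 18.9% of all tested genes), 1 higher and 2 lower, and the median log2 fold change was -0.08. All 12 endothelial markers had a negative log2 fold change, with a median of -0.43, and 2 of them were called (16.7%), Egfl7 and Cldn5. The 10 tested fibroblast markers had a median of -0.29, and 2 of them (20%), Ogn and Fbln2, were called lower. The names of these 4 genes were picked with their values in view. The labels give no sex or batch, and heterozygotes 3 and 5 and knockout 5 lacked the Y-linked transcripts found in the other 7 libraries.

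Among the 23 tested collagens, 5 were called and all 5 were higher in the knockout. They were Col4a4, Col4a5 and Col4a6 of type IV, Col6a2 of type VI and Col22a1, a collagen of tissue junctions. This is 21.7% of those tested, beside 18.9% of all tested genes called in either direction and 10.2% called higher. No collagen was called lower by edgeR, DESeq2 or voom, beside 8.64% of all tested genes called lower by edgeR. At an unadjusted p below 0.05, 0 of these 23 collagens were lower. Col4a6 and Col22a1 passed the low-count filter through the knockout libraries, since 0 and 1 heterozygote libraries reached the filter's level of 1.01 CPM and all 5 knockouts did, on the unscaled library totals that the filter uses. Of the other 21 tested collagens, 3 were called. The median log2 fold change was 0.06 over the 23 genes and 0.03 over those 21, beside 0.0023 for all tested genes. The groups did not overlap for 4 of the 23 genes, Col4a5, Col4a6, Col6a2 and Col22a1, beside 14.7% of all tested genes. All 4 were higher in the knockout, beside 8.41% of all tested genes, and none was lower, beside 6.32%. Without Col4a6 and Col22a1, 2 of 21 did not overlap.

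**Figure D1:**
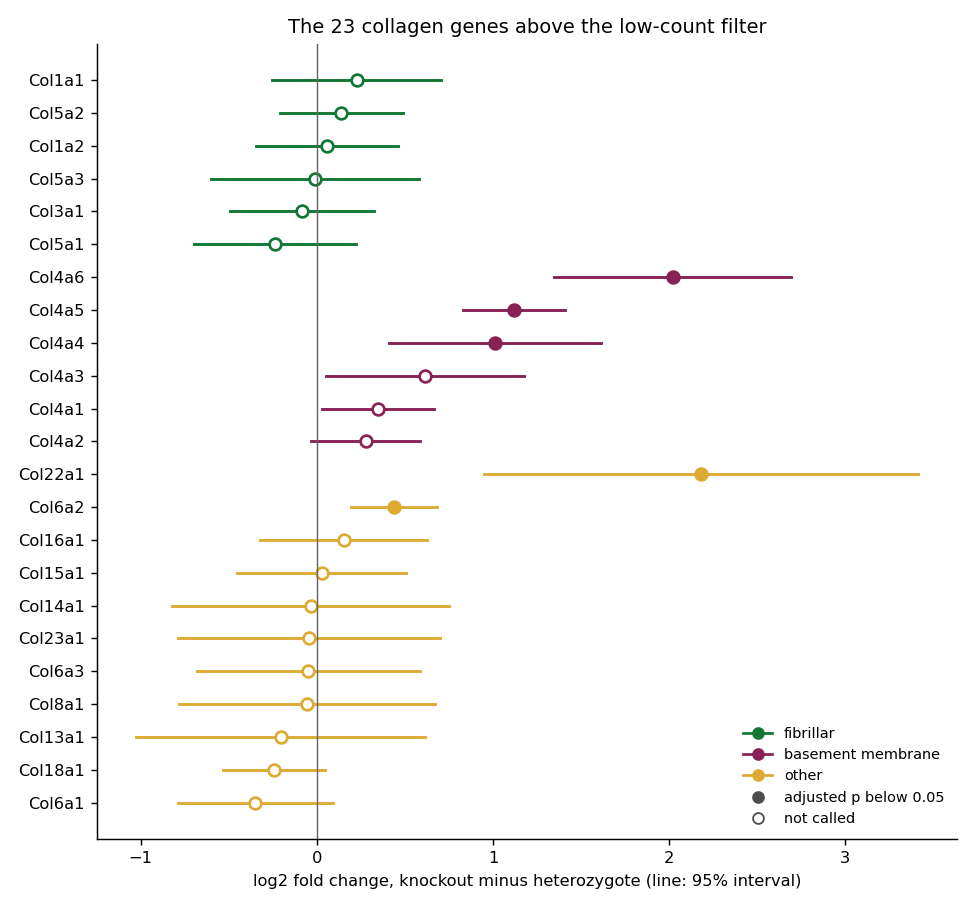
Log2 fold change of each of the 23 tested collagen genes, knockout minus heterozygote (x axis), with its 95% interval as a line; filled points have an edgeR adjusted p below 0.05. The 6 type IV genes lie between 0.28 and 2.02, and the 6 fibrillar genes between -0.24 and 0.23.

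Type IV chains made up most of the collagen message in both groups. Per kilobase of exon, Col4a1 stood at 183 CPM and Col4a2 at 137 CPM in heterozygotes, ahead of the fibrillar gene Col3a1 at 46.4 CPM and of Col4a5 at 29.3 CPM. In knockouts the order was Col4a1 at 233, Col4a2 at 166, Col4a5 at 63.6 and Col3a1 at 43.7 CPM per kilobase. Col4a5 and Col3a1 thus changed places in the order. The 6 type IV genes took 75.8% ± 2.35 of all collagen reads per kilobase in heterozygotes and 80.6% ± 2.90 in knockouts (SD, n = 5 each). The ranges of that share, 72.1% to 78.7% and 77.6% to 83.8%, overlapped. All 6 log2 fold changes in type IV were positive, 3 of the 6 were called (50%, beside 18.9% of all tested genes), and the median was 0.81. A list of 6 genes is too short to tell 3 calls from that share. Without Col4a6, 2 of 5 were called and the median was 0.61.

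The type IV genes lie in the genome as 3 head-to-head pairs, each transcribed outward from a shared stretch of DNA. In build mm10, Col4a1 (chr8:11198423-11312826, minus strand) and Col4a2 (chr8:11312829-11449287, plus strand) are separated by 2 bases. Col4a4 (chr1:82450723-82586849, minus strand) and Col4a3 (chr1:82586921-82722059, plus strand) are separated by 71 bases. Col4a6 (chrX:141165403-141474076, minus strand) and Col4a5 (chrX:141475419-141689235, plus strand) are separated by 1342 bases. The log2 fold changes within each pair were 0.35 and 0.28 for Col4a1 and Col4a2, 0.61 and 1.01 for Col4a3 and Col4a4, and 1.12 and 2.02 for Col4a5 and Col4a6. Both members of each pair thus had a positive log2 fold change, and the called type IV genes sat in the pairs on chromosomes 1 and X. Of these called genes, Col4a6 passed the low-count filter through the knockout libraries.

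The DNA at the starts of the pairs that hold the called genes is shown because it borders the transcripts whose levels differed, with the start of Col3a1 for comparison as the most abundant fibrillar gene. Sequences are from RefSeq, build GRCm38.p6, for which 35 of the 43 collagen genes had an entry. None of the printed bases is exonic in GENCODE M21. For Col4a5 and Col4a6, the stretches are the ends of the interval next to each gene, and the bases between them are not shown. Capitals mark matches, on either strand, to GGGCGG (the GC box bound by Sp factors), CCAAT (the CCAAT box), TATAAA (the TATA box), CATTCC (bound by TEAD factors), TGANTCA (bound by AP-1) or the CArG box (bound by serum response factor). No match overlapped another.
Col4a3 and Col4a4, all bases between the starts, chr1:82586850-82586920, plus strand: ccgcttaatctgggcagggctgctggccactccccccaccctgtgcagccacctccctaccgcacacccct
Col4a6, upstream of the start, chrX:141474077-141474326, minus strand: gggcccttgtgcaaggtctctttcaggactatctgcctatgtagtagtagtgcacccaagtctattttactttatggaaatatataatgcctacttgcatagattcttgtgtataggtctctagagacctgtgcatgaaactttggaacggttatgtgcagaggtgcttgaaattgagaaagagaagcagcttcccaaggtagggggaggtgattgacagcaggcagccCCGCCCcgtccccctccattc
Col4a5, upstream of the start, chrX:141475169-141475384, plus strand: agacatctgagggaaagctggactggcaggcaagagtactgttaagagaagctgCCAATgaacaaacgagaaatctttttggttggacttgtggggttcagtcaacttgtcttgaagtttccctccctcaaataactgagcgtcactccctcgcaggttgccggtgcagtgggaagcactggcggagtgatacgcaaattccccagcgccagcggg
Col3a1, upstream of the start, chr1:45311288-45311537, plus strand: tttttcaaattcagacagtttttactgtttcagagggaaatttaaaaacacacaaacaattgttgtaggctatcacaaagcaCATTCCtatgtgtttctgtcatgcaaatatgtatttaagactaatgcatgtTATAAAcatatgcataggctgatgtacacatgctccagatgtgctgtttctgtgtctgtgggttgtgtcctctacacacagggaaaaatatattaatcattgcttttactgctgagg

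The stretch between Col4a3 and Col4a4 was 69% G and C and held none of the 6 motifs. The Col4a6 stretch, at 47.6% G and C, held 1 GC box, written here as its complement, and the Col4a5 stretch, at 52.3%, held 1 CCAAT. The full 250 bases before the Col4a5 start, of which the last are exonic in GENCODE M21 and not printed, also held 1 GC box. The Col3a1 stretch was 35.2% G and C and held 1 TATAAA and 1 CATTCC. Among 32851 upstream windows of 250 bases over all genes, 32.7% held GGGCGG, 33.8% CCAAT, 12.4% TATAAA, 12.6% CATTCC, 6.75% TGANTCA and 1.47% a CArG box. Among the 38 windows of the 35 collagen genes the shares were 57.9%, 34.2%, 13.2%, 10.5%, 2.63% and 2.63%. The stretches at Col4a3 and Col4a5 are shorter than these windows, and a match of letters does not show binding.

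Col4a5 encodes a chain of the alternative type IV trimers and is the gene most often mutated in Alport syndrome. It was 220, 178, 233, 160 and 158 CPM in heterozygotes 1 to 5 and 476, 452, 437, 341 and 356 CPM in knockouts 1 to 5. Every knockout was above every heterozygote. The mean rose from 190 ± 34.7 to 413 ± 60.5 CPM (SD, n = 5 each), a 2.17-fold increase (log2 fold change 1.12, SE 0.14, 95% interval 0.83 to 1.41, edgeR adjusted p = 6.38e-05).

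Col4a6 encodes the chain that pairs with that of Col4a5 in smooth muscle and other basement membranes. Heterozygotes 1 to 5 held 22, 7, 8, 6 and 3 of its reads and knockouts 1 to 5 held 35, 29, 33, 27 and 66, or 0.295 to 1.03 CPM against 2.21 to 3.73 CPM. The gene was near the detection limit in heterozygotes, and the groups did not overlap. It passed the low-count filter through the knockout libraries, so its lack of overlap and its test are not independent of the filter. Its mean rose from 0.754 ± 0.288 to 3.12 ± 0.633 CPM (SD, n = 5 each; log2 fold change 2.02, SE 0.31, edgeR adjusted p = 0.000507). Both genes are X-linked, and with Y-linked expression as a covariate their log2 fold changes were 1.10 (edgeR adjusted p = 0.000193) and 2.02 (adjusted p = 0.000957).

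Col4a4 encodes a chain that assembles with those of Col4a3 and Col4a5. It was 2.39, 3.56, 2.82, 4.11 and 2.75 CPM in heterozygotes 1 to 5 and 2.60, 8.63, 6.54, 6.57 and 6.62 CPM in knockouts 1 to 5. Knockout 1 lay within the heterozygote range and the other 4 knockouts above it. The mean rose from 3.13 ± 0.693 to 6.19 ± 2.19 CPM (SD, n = 5 each; log2 fold change 1.01, SE 0.28, 95% interval 0.41 to 1.61, edgeR adjusted p = 0.0215). The call was lost without heterozygote 1 (log2 fold change 0.91, edgeR adjusted p = 0.0579) and without knockout 2 (0.86, adjusted p = 0.0630).

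Col4a3, the partner of Col4a4 in these trimers, was 2.56 to 6.33 CPM in heterozygotes and 4.37 to 8.21 CPM in knockouts. The groups overlapped, and the gene was not called (log2 fold change 0.61, 95% interval 0.05 to 1.18, edgeR adjusted p = 0.122). It was called by voom (0.82, adjusted p = 0.0364) and by edgeR without heterozygote 4 (0.82, adjusted p = 0.0361).

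Col4a1, the most abundant collagen message in these libraries, was 1315, 1420, 1336, 1146 and 835 CPM in heterozygotes 1 to 5 and 1731, 1837, 1458, 1522 and 1149 CPM in knockouts 1 to 5. Knockouts 1 to 4 were above all heterozygotes, and knockout 5 lay among them. The means of 1211 ± 232 and 1539 ± 267 CPM (SD, n = 5 each) gave a log2 fold change of 0.35 (95% interval 0.03 to 0.66), which was not called (edgeR adjusted p = 0.122). Scaling by library totals alone gave an adjusted p of 0.0408 for this gene, with a log2 fold change of 0.43. Col4a2, its partner chain, was 637 to 1009 CPM in heterozygotes and 848 to 1266 CPM in knockouts and was not called (log2 fold change 0.28, 95% interval -0.03 to 0.59, edgeR adjusted p = 0.204).

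**Figure D2:**
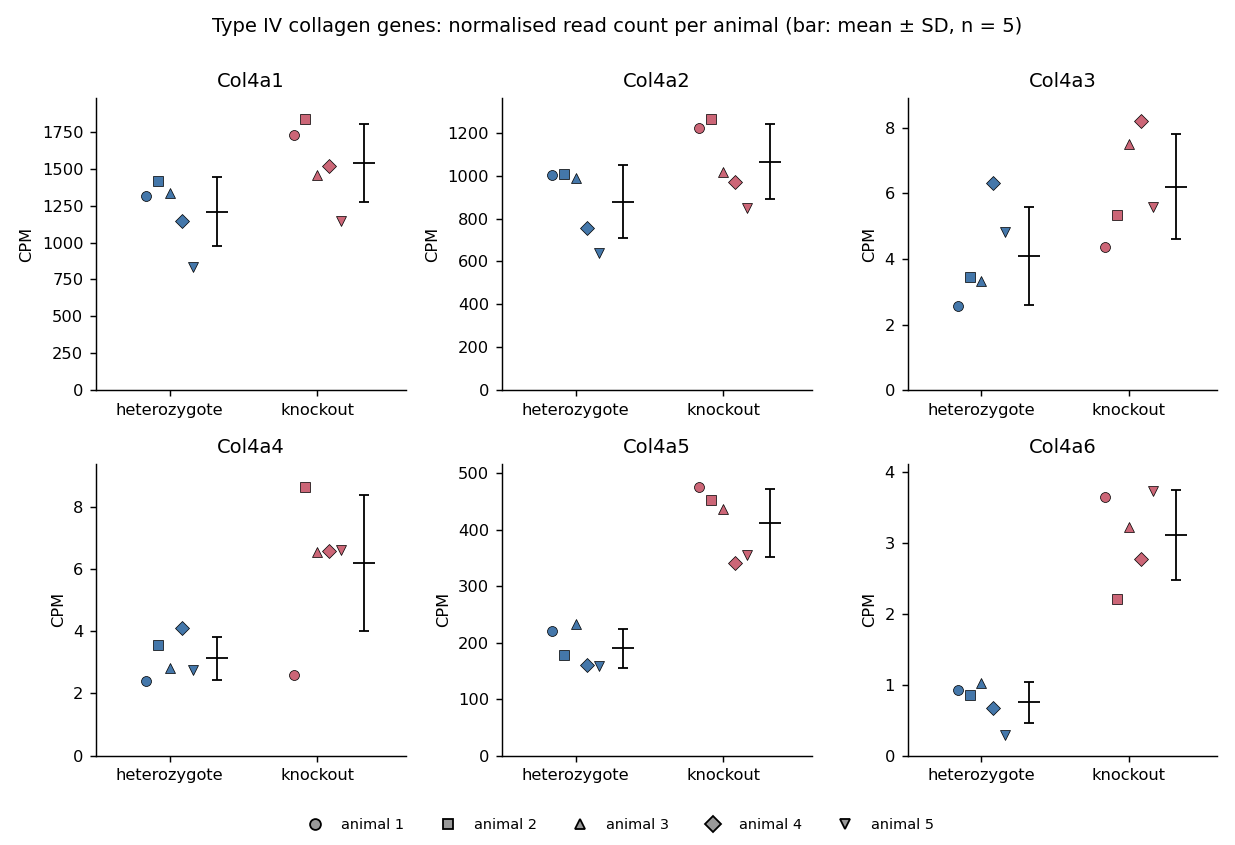
Normalised read count (CPM, y axis) of the 6 type IV genes in each animal; the marker shape gives the animal's number and the bars are mean ± SD (n = 5 per group). Col4a5 and Col4a6 show no overlap, and knockout 1 lies low for Col4a4.

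Col4a5 made up more of the type IV message in every knockout than in any heterozygote. As a share of type IV reads per kilobase, Col4a5 was 8.44% ± 1.13 in heterozygotes and 13.8% ± 1.37 in knockouts (SD, n = 5 each), with ranges of 6.86% to 9.72% and 12.04% to 15.1%. Col4a1 and Col4a2 supplied 52.2% and 39.0% in heterozygotes and 50.1% and 35.7% in knockouts, and the other 3 genes less than Col4a5 in both groups. The ratio of Col4a5 to Col4a1 per kilobase stood at 0.171, 0.128, 0.178, 0.142 and 0.193 in the heterozygotes, numbered 1 to 5, and at 0.281, 0.251, 0.305, 0.228 and 0.316 in the knockouts. It did not overlap between the groups (log2 difference 0.77, exact permutation p = 0.00794, the smallest that 5 against 5 allows, and 0.0238 adjusted over 6 ratios). This ratio and that of Col4a4 to Col4a3 were picked with their values in view. Adjustment over 6 ratios does not correct for that choice. The lack of overlap and the p of Col4a5 to Col4a1 are therefore not separate support for the call of Col4a5. The ratio of Col4a4 to Col4a3 overlapped between the groups (log2 difference 0.27, exact permutation p = 0.389). The ratio of the common chains, Col4a1 to Col4a2, was 1.34 ± 0.0841 and 1.40 ± 0.0753 (SD, n = 5 each; log2 difference 0.07, exact permutation p = 0.238, and 0.238 adjusted over 4 ratios).

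In type VI, the chains did not move together. Col6a2 was 35.6, 40.8, 32.9, 38.7 and 27.5 CPM in heterozygotes 1 to 5 and 43.7, 54.6, 48.4, 43.7 and 47.0 CPM in knockouts 1 to 5. All knockouts were above all heterozygotes, and the mean rose from 35.1 ± 5.22 to 47.5 ± 4.47 CPM (SD, n = 5 each; log2 fold change 0.44, SE 0.11, 95% interval 0.19 to 0.68, edgeR adjusted p = 0.0154). Col6a1, whose chain enters the same trimer, was 32.7, 41.3, 35.4, 48.3 and 21.5 CPM in heterozygotes and 22.6, 40.9, 24.9, 28.9 and 22.9 CPM in knockouts. It overlapped and was not called (log2 fold change -0.35, 95% interval -0.79 to 0.09, edgeR adjusted p = 0.262). Col6a3, the third chain of the trimer, was 5.12 to 13.4 CPM in heterozygotes and 6.77 to 17.4 CPM in knockouts (log2 fold change -0.05, 95% interval -0.68 to 0.58, edgeR adjusted p = 0.932). Col6a2 (chr10:76595756-76623404) and Col6a1 (chr10:76708792-76726044) lie on the minus strand of chromosome 10 with 85387 bases between them.

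Per kilobase, the ratio of Col6a1 to Col6a2 stood at 0.861, 0.949, 1.01, 1.17 and 0.737 in the heterozygotes, numbered 1 to 5, and at 0.485, 0.702, 0.483, 0.621 and 0.457 in the knockouts. The lowest heterozygote was above the highest knockout. The mean ratio fell from 0.944 ± 0.162 to 0.550 ± 0.107 (SD, n = 5 each; log2 difference -0.78, two-sided exact permutation p = 0.00794, 0.0317 adjusted over the 4 ratios). A ratio within a library does not depend on library scaling, but it shows unequal change only, not which chain moved. The endothelial and fibroblast markers had lower medians in the knockout, as given above. The endothelial score is the mean log2 CPM of the endothelial markers in each library, and the fibroblast score was made likewise. With the endothelial score as a covariate, the log2 fold changes were 0.08 for Col6a1 and 0.52 for Col6a2. With the fibroblast score they were -0.15 for Col6a1 and 0.53 for Col6a2. The part of these markers in this ratio was not tested.

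**Figure D3:**
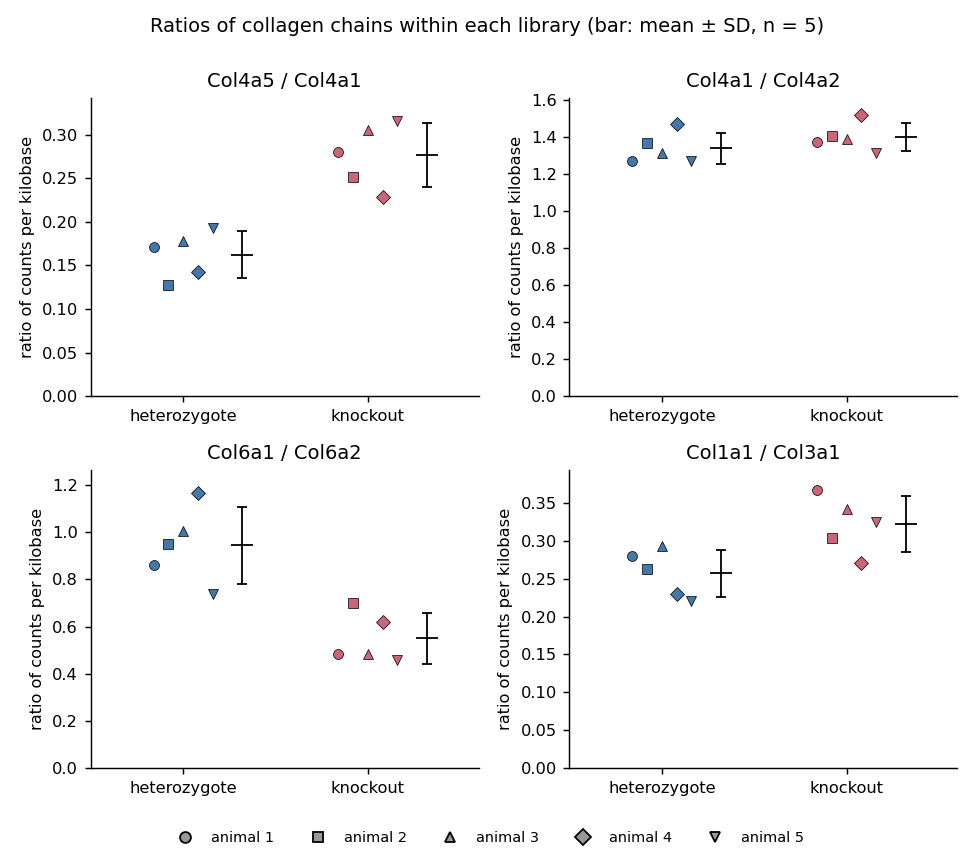
Ratio of counts per kilobase of exon (y axis) for 4 pairs of collagen chains in each animal, with mean ± SD (n = 5 per group) as bars and marker shapes for the animal's number. Col4a5 to Col4a1 and Col6a1 to Col6a2 do not overlap between the groups, whereas the other 2 ratios do.

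Col22a1 encodes a collagen known from tissue junctions such as that between muscle and tendon. Heterozygotes 1 to 5 held 27, 0, 0, 1 and 5 of its reads, and knockouts 1 to 5 held 21, 29, 27, 23 and 26. In CPM this was 1.13 in heterozygote 1, at most 0.492 in the other 4 heterozygotes, and 1.47 to 2.63 in the knockouts. The lowest knockout was above heterozygote 1, which holds the largest number of reads. Col22a1 passed the low-count filter through the knockout libraries, so this lack of overlap and its test are not independent of the filter. The mean rose from 0.347 ± 0.484 to 2.17 ± 0.431 CPM (SD, n = 5 each; log2 fold change 2.18, SE 0.58, 95% interval 0.95 to 3.41, edgeR adjusted p = 0.0162). Without heterozygote 1 the log2 fold change was 3.59. The call was lost with the endothelial score (log2 fold change 1.92, edgeR adjusted p = 0.105) or the fibroblast score (2.26, adjusted p = 0.0703) as a covariate.

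No fibrillar collagen was called. Of the 11 genes, 6 were tested, and 0 of these were called by edgeR, DESeq2 or voom, beside 18.9% of all tested genes called by edgeR. A list of 6 genes is too short to tell 0 calls from that share. None of the 6 had an unadjusted p below 0.05. Their log2 fold changes were from -0.24 to 0.23, with a median of 0.02, and 3 were positive and 3 negative. The other 5, Col2a1, Col11a1, Col11a2, Col24a1 and Col27a1, had counts too low to test.

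Col3a1, the type III chain and the most abundant fibrillar message, was 302, 306, 238, 265 and 178 CPM in heterozygotes 1 to 5 and 216, 364, 234, 161 and 241 CPM in knockouts 1 to 5. The highest and the lowest value were both in knockouts, numbers 2 and 4 (log2 fold change -0.08, SE 0.19, 95% interval -0.50 to 0.33, edgeR adjusted p = 0.808). Col1a1 and Col1a2 encode the 2 kinds of chain of type I collagen. Col1a1 was 71.4, 68.0, 58.8, 51.5 and 33.2 CPM in heterozygotes and 66.9, 93.4, 67.6, 36.8 and 66.1 CPM in knockouts (log2 fold change 0.23, 95% interval -0.25 to 0.70, edgeR adjusted p = 0.530). Col1a2 was 64.2, 57.1, 47.3, 57.8 and 34.8 CPM in heterozygotes and 51.3, 76.5, 57.2, 35.8 and 51.4 CPM in knockouts (log2 fold change 0.06, 95% interval -0.34 to 0.46, edgeR adjusted p = 0.868). The groups overlapped for all 3 genes, and the upper ends of their intervals lay below the log2 fold change of Col4a5.

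Type V collagen regulates the width of fibrils. Col5a1 was 20.2 ± 6.07 CPM in heterozygotes and 17.1 ± 4.15 CPM in knockouts (SD, n = 5 each; log2 fold change -0.24, 95% interval -0.70 to 0.22, edgeR adjusted p = 0.486). Col5a2 was 24.1 ± 5.90 and 26.4 ± 4.26 CPM (log2 fold change 0.14, 95% interval -0.21 to 0.49, edgeR adjusted p = 0.610). The fibrillar genes shared their extreme animals: knockout 2 was the highest knockout for all 6 tested fibrillar genes, and heterozygote 5 the lowest heterozygote for 5 of the 6. The same knockout was highest for 16 of the 23 tested collagens, and the same heterozygote lowest for 15.

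The ratio of Col1a1 to Col3a1 per kilobase stood at 0.280, 0.263, 0.293, 0.230 and 0.221 in the heterozygotes, numbered 1 to 5, and at 0.368, 0.304, 0.343, 0.271 and 0.325 in the knockouts. The ranges overlapped through knockout 4, and 4 of the 5 knockouts were above all heterozygotes. The mean was 0.257 ± 0.0310 in heterozygotes and 0.322 ± 0.0370 in knockouts (SD, n = 5 each; log2 difference 0.32, two-sided exact permutation p = 0.0238, 0.0476 adjusted over the 4 ratios). The ratio of Col1a1 to Col1a2 was 1.18 ± 0.166 and 1.32 ± 0.120 (log2 difference 0.17, exact permutation p = 0.190, adjusted 0.238).

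Fibrillar collagens are mainly fibroblast products, so fibroblast markers are set beside them. Pdgfra, a growth factor receptor of fibroblasts, was 2.60 ± 0.815 CPM in heterozygotes and 3.42 ± 0.857 CPM in knockouts (SD, n = 5 each; edgeR adjusted p = 0.378). Dcn, the small proteoglycan decorin, was 37.6 ± 12.3 and 31.0 ± 5.22 CPM (edgeR adjusted p = 0.332). The summed level of the 12 fibroblast markers was 341 to 473 CPM in heterozygotes. It was 360 CPM in knockout 2, inside that range, and 282 to 326 CPM in the other knockouts, below it. Of the endothelial genes, the adhesion protein gene Pecam1 was 83.1 ± 14.1 and 62.8 ± 12.7 CPM (adjusted p = 0.0681) and the cadherin gene Cdh5 was 66.5 ± 11.1 and 50.2 ± 14.6 CPM (adjusted p = 0.126). The mural-cell receptor gene Pdgfrb was 60.3 ± 11.3 and 48.3 ± 16.96 CPM (adjusted p = 0.352), and Ptprc, a marker of leukocytes, was at 0 to 13 counts per library. All 4 tested leukocyte markers of 8 had a negative log2 fold change (median -0.87), and the summed level of all 8 did not overlap, at 14.0 to 38.2 CPM in heterozygotes and 8.71 to 11.2 CPM in knockouts. Of these 4, 1 was called (25%, beside 18.9% of all tested genes called in either direction and 8.64% called lower). That gene was Csf1r, a macrophage receptor gene, which was lower in the knockout (log2 fold change -0.86, edgeR adjusted p = 0.0216). Of the 8 mural markers, 6 were negative, the median was -0.33, and 1 was called (12.5%, beside 18.9% of all tested genes). The called mural gene was Cspg4, which was higher in the knockout with a log2 fold change of 1.84. Csf1r and Cspg4 were named after their values were seen. The defining fibroblast, endothelial and mural genes were thus detected in these sorted cells, and their part in the collagen levels was not tested.

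**Figure D4:**
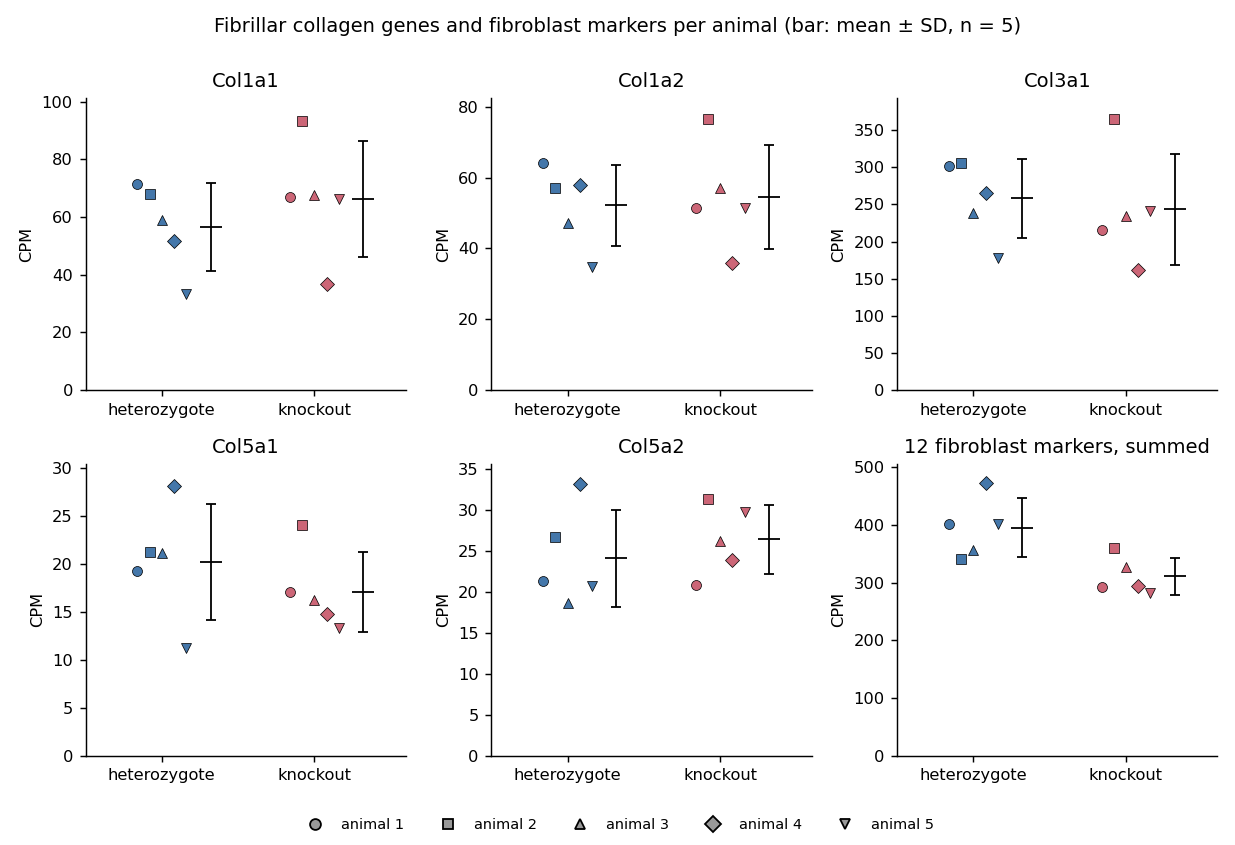
Normalised read count (CPM, y axis) of 5 fibrillar collagen genes and the summed CPM of 12 fibroblast markers in each animal, with mean ± SD (n = 5 per group) as bars and marker shapes for the animal's number. The groups overlap in every panel, and knockout 2 is the highest knockout in each.

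The remaining collagens varied without a call. Col18a1, whose product carries the endostatin fragment, was 50.6 ± 8.94 CPM in heterozygotes and 42.7 ± 6.62 CPM in knockouts (SD, n = 5 each; log2 fold change -0.24, 95% interval -0.53 to 0.04, edgeR adjusted p = 0.231). Col15a1, the other multiplexin, was 14.2 ± 1.98 and 14.6 ± 4.79 CPM (log2 fold change 0.03, 95% interval -0.45 to 0.51, edgeR adjusted p = 0.948). The other 5 tested genes of this class, Col8a1, Col13a1, Col14a1, Col16a1 and Col23a1, lay between -0.21 and 0.15. Of the 20 collagens below the filter, Col9a1 had 0 counts in all 10 libraries, and the other 19 had at most 29 counts in any library. Without the filter, edgeR tested those 19 and called 0 of them, with the smallest adjusted p at 0.146 and 2, Col7a1 and Col10a1 (named for this), at an unadjusted p below 0.05. The mean of Col7a1 was higher in the knockout, at 0.841 against 0.377 CPM. Col10a1 was lower, with 3, 0, 0, 0 and 4 counts in heterozygotes 1 to 5 and 0 in every knockout.

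Genes that modify and export collagen chains gave 4 calls among 19 tested of 20 listed, which were 3 rises and 1 fall. The share of 21.1% stands beside 18.9% of all tested genes, and DESeq2 called 6, of which 3 were higher and 3 lower. Of the 19, 6 had a positive log2 fold change and 13 a negative one. The groups did not overlap for 2 higher genes and 1 lower gene, beside 8.41% and 6.32% of all tested genes, and the lower one was not called. Leprel1, now called P3h2, encodes a prolyl 3-hydroxylase known to act on type IV collagen. It was 2.23, 3.19, 4.10, 4.22 and 0.787 CPM in heterozygotes 1 to 5 and 24.4, 11.99, 24.2, 11.9 and 6.28 CPM in knockouts 1 to 5. All knockouts were above all heterozygotes, though the knockouts themselves spread widely. The mean rose from 2.90 ± 1.43 to 15.7 ± 8.13 CPM (SD, n = 5 each; log2 fold change 2.47, SE 0.42, edgeR adjusted p = 0.00103).

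P4ha1 encodes a catalytic subunit of prolyl 4-hydroxylase, which stabilises the triple helix. It was 38.5, 36.5, 43.3, 39.2 and 30.6 CPM in heterozygotes and 69.6, 58.7, 62.4, 48.1 and 38.4 CPM in knockouts, with knockout 5 inside the heterozygote range. Its mean rose from 37.6 ± 4.64 to 55.4 ± 12.3 CPM (SD, n = 5 each; log2 fold change 0.56, SE 0.15, edgeR adjusted p = 0.0167). Its paralog P4ha2 was not called (log2 fold change -0.11, edgeR adjusted p = 0.648), nor were the lysyl hydroxylase gene Plod2 (0.23, adjusted p = 0.230) and Serpinh1, the collagen chaperone HSP47 (-0.10, adjusted p = 0.709).

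Mia3, or TANGO1, loads bulky procollagen into carriers at the exit sites of the endoplasmic reticulum. It was 81.3, 56.0, 73.4, 63.9 and 70.2 CPM in heterozygotes and 91.0, 96.2, 87.8, 94.7 and 95.7 CPM in knockouts. The groups did not overlap (log2 fold change 0.43, SE 0.10, edgeR adjusted p = 0.00804), and the call was lost with the endothelial score as a covariate (0.39, adjusted p = 0.0902). Ctage5, a partner of Mia3 at the same sites, was 51.7, 44.6, 53.8, 58.7 and 61.1 CPM in heterozygotes and 39.7, 46.8, 43.6, 41.9 and 46.9 CPM in knockouts. Heterozygote 2 lay inside the knockout range, and the mean fell from 54.0 ± 6.46 to 43.8 ± 3.15 CPM (SD, n = 5 each; log2 fold change -0.30, SE 0.10, edgeR adjusted p = 0.0493). That value lies next to the threshold, and of the leave-one-out fits it was kept only without heterozygote 2, with adjusted p of 0.0581 to 0.119 when any other animal was left out. It was also lost with the replicate block (adjusted p = 0.0810), library totals alone (0.182), no filter (0.0785), a filter at 1 CPM (0.0505) and the Y-linked (0.0830), endothelial (0.179) or fibroblast (log2 fold change -0.19, adjusted p = 0.310) covariate.

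Of the processing and crosslinking genes, 11 of 13 were tested and 1 rose, or 9.09% beside 10.2% of all genes called higher. Adamts14, a procollagen N-proteinase, was 0.128 to 1.47 CPM in heterozygotes and 0.924 to 3.44 CPM in knockouts, and the ranges overlapped (log2 fold change 1.74, SE 0.51, edgeR adjusted p = 0.0281). Its call was kept in 4 of 10 leave-one-out fits and lost without heterozygote 1, 3 or 5 or knockout 1, 2 or 3, with adjusted p up to 0.0807; the endothelial score as a covariate gave 0.111. Bmp1, the procollagen C-proteinase gene, was not called (log2 fold change 0.22, edgeR adjusted p = 0.268), but was called without heterozygote 2 (0.35, adjusted p = 0.0290) and by voom (0.34, adjusted p = 0.0435). The lysyl oxidase genes Lox (-0.08, adjusted p = 0.930) and Loxl2 (0.35, adjusted p = 0.413) were not called either.

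Among the receptors, 5 of 10 were tested, 1 rose and 1 fell, beside 10.2% and 8.64% of all tested genes. Ddr1 encodes a receptor tyrosine kinase activated by collagens, type IV among them. It was 81.9, 88.2, 68.7, 49.8 and 66.4 CPM in heterozygotes and 170, 152, 141, 144 and 138 CPM in knockouts. Every knockout was above every heterozygote, and the mean rose from 71.0 ± 14.9 to 149 ± 13.03 CPM (SD, n = 5 each; log2 fold change 1.07, SE 0.14, edgeR adjusted p = 9.08e-05). Ddr2, the related receptor of fibrillar collagens, was not called, at 5.02 ± 0.774 and 4.14 ± 0.784 CPM (log2 fold change -0.28, edgeR adjusted p = 0.366).

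Itga1 encodes the alpha chain of an integrin that binds type IV collagen. It was 36.1, 38.8, 44.7, 52.2 and 30.9 CPM in heterozygotes and 25.1, 30.9, 28.7, 32.9 and 26.9 CPM in knockouts, with heterozygote 5 inside the knockout range. The mean fell from 40.5 ± 8.20 to 28.9 ± 3.11 CPM (SD, n = 5 each; log2 fold change -0.49, SE 0.14, edgeR adjusted p = 0.0225). With the endothelial score as a covariate its log2 fold change was -0.17 (edgeR adjusted p = 0.504) and with the fibroblast score -0.38 (0.151). The call was also lost with library totals alone (adjusted p = 0.0668) and without heterozygote 3 or knockout 1, 3 or 5 (0.0505 to 0.0562). Itga11, the alpha chain of an integrin for fibrillar collagen, had 0 to 7 counts per library and was not tested.

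Among the collagen-cleaving proteases, 4 of 8 were tested and 1 rose, beside 10.2% of all tested genes. Ctsk, the gene of cathepsin K, was 7.77, 9.21, 7.56, 6.44 and 6.40 CPM in heterozygotes and 11.1, 13.6, 10.9, 8.83 and 11.1 CPM in knockouts. Only knockout 4 lay within the heterozygote range (log2 fold change 0.58, SE 0.16, edgeR adjusted p = 0.0217), and the call was lost without heterozygote 5 (adjusted p = 0.0524) or knockout 2 (0.0597). It was also lost with the endothelial score (log2 fold change 0.48, adjusted p = 0.195) or the fibroblast score (0.59, adjusted p = 0.0670) as a covariate. The gelatinase gene Mmp2 (-0.40, adjusted p = 0.149) and the membrane collagenase gene Mmp14 (-0.21, adjusted p = 0.463) were not called. Mmp2 was called lower with Y-linked expression as a covariate (-0.50, edgeR adjusted p = 0.0336) and without knockout 2 (-0.57, adjusted p = 0.0369). The median log2 fold change was -0.10 for the modification and export list, 0.18 for the processing list, -0.12 for the receptors and -0.31 for the proteases.

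**Figure D5:**
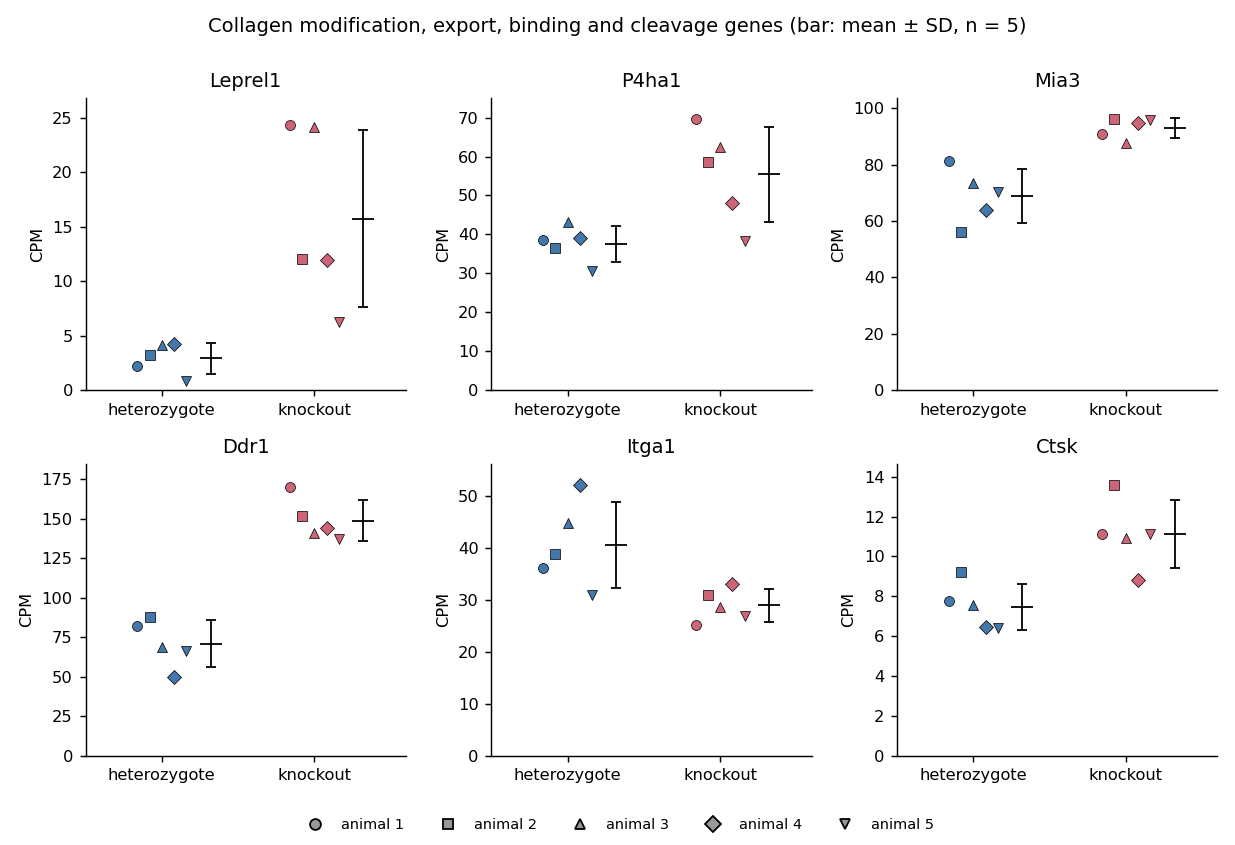
Normalised read count (CPM, y axis) of 6 called genes that modify, export, bind or cleave collagen in each animal, with mean ± SD (n = 5 per group) as bars and marker shapes for the animal's number. Leprel1, Mia3 and Ddr1 are higher in all 5 knockouts than in any heterozygote, and Itga1 is lower in the knockout mean.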

How the data were processed

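Per the submitters' processing notes, reads were handled with CASAVA 1.8, STAR 2.5.3a and featureCounts of Subread 1.5.2 on mm10. Per the file header, the authors made the deposited counts with featureCounts 1.5.1 (4 threads) and a UCSC mm10 annotation archived in 2012. The versions differ, and the header's alignment names carry another aligner's default, so the aligner is uncertain. Strand use is not given in the sources used here. The values are whole, unnormalised counts of reads per gene. Another 4 count columns belong to no sample described here and were not used.

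Genes were kept by edgeR's filterByExpr (minimum count 10, minimum total count 15), scaled by TMM factors and tested with glmQLFTest over all 10 samples without covariates (edgeR 4.0.16, R 4.3.3). Adjustment was by the Benjamini-Hochberg method over 11870 genes. The standard error is the log2 fold change over the square root of F. Levels per kilobase divide CPM by the deposited exon length. Ratios used counts plus 0.5 and two-sided exact permutation tests of log2 ratios over 252 arrangements (scipy 1.17.1). Marker scores are mean log2 CPM per library. The fit was tested on simulated counts. Replicate pairs differed by more than sampling noise (chi-square per degree of freedom 10.8 to 37.5 over 20 pairs).

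The members and gene lists were chosen with earlier results of these data known. Named genes are all called collagens, the main chains of types I, III, IV, V, VI, XV and XVIII, all called genes of the collagen lists with a fixed set of their best-known members, Actn2 and 6 marker genes. Alternatives were other scalings and filters, DESeq2 1.42.0, limma's voom (limma 3.58.1), a replicate block, covariates and leaving out each animal.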

Additional observations from a re-analysis of the deposited data

Results flagged for a closer look

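Of 92 sets of 5 values examined for a single distant sample, 1 stood out, whereas chance gives about 1 in 20. It was the knockout group of Col4a4, where knockout 1 had a log2(CPM + 1) of 1.85 and the nearest other knockout 2.91. The gap made up 0.751 of the range of the 5 values, above the critical value of 0.71. Without knockout 1 the log2 fold change of Col4a4 was 1.20.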

How the results depend on the processing

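Of 35 named and tested genes, the 6 marker genes apart, 14 were called, and 7 of these kept their direction and call in all fits that tested them. Col4a5 ranged from 1.06 to 1.20, and Col4a6 and Col6a2 also kept their calls in the fits that tested them. Col6a2 came close to the threshold. Its edgeR adjusted p reached 0.0451 on leaving out 1 animal and 0.0486 with the endothelial score as a covariate. The 20 collagens below the filter had few counts, and Col4a6, Col22a1 and Adamts14 rest on few counts. Col4a6 and Col22a1 also passed the filter through the knockout libraries. The cause of each change below was not tested except where stated.

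All genes called came to 2241 (1216 higher and 1025 lower), and to 1115 with the endothelial score as a covariate, 2444 with library totals alone (1684 higher and 760 lower, with all genes shifted by a median of 0.08) and 1699 to 2258 when 1 animal was left out. Collagens called came to 5, to 2 at a mean of at least 5 CPM, where fewer genes were tested, and to 4 to 6 when 1 animal was left out. The modification list gave 2 with the endothelial score, 6 with DESeq2, 5 with upper-quartile scaling or the fibroblast score, and 3 to 4 on leaving out 1 animal. The processing list gave 2 with library totals alone, voom or the replicate block, 0 at 5 CPM or with the endothelial score, and 0 to 2 on leaving out 1 animal. The receptors gave 1 with library totals alone or the endothelial or fibroblast score, and 1 to 2 on leaving out 1 animal. The proteases gave 2 with Y-linked expression as a covariate, 0 with the endothelial or fibroblast score, and 0 to 1 on leaving out 1 animal.

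Signs turned only in genes that were not called. With the endothelial score, log2 fold changes were 0.062 for Col18a1, 0.20 for Col5a1, 0.083 for Col6a1, 0.39 for Col6a3, 0.019 for Ddr2, 0.23 for Lox and 0.094 for Mmp14. With the fibroblast score they were 0.11 for Col3a1, 0.037 for Col5a1, 0.25 for Col6a3, 0.86 for Lox and 0.059 for Mmp14. With voom they were -0.026 for Col15a1, 0.033 for Col6a3, 0.29 for Lox and 0.0097 for Serpinh1. Library totals gave 0.029 for Col6a3, and the Y-linked covariate -0.13 for Col15a1. Leaving out 1 animal gave -0.10 to 0.21 for Col15a1, -0.10 to 0.18 for Col1a2, -0.28 to 0.032 for Col3a1, -0.38 to 0.075 for Col6a3, -0.31 to 0.37 for Lox, -0.19 to 0.00081 for P4ha2 and -0.18 to 0.067 for Serpinh1.

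The labels do not say whether animals of equal number were linked in any way. Their deviations correlated at 0.112, -0.0124, -0.0604, 0.185 and 0.141, and 2 of 5 animals correlated best with their own number. So few values cannot settle whether the animals were paired. The replicate block gave 2182 calls, -0.026 for Col15a1 and 0.11 for Lox, and called Col4a1 (0.35, edgeR adjusted p = 0.0201). With this pairing, the log2 differences of -0.78 for Col6a1 to Col6a2, 0.32 for Col1a1 to Col3a1 and 0.77 for Col4a5 to Col4a1 each had an exact p of 0.0625, the smallest that 32 paired arrangements allow. Leaving out 1 animal gave 0.037 to 0.10 for Col4a1 to Col4a2.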
